A study of Mus musculus with 4 samples.

Results

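Goblet cells are the mucus-secreting cells of the gut lining, and 10 genes of their secretory products and their differentiation were listed for description: Muc2, Tff3, Fcgbp, Agr2, Spdef, Zg16, Spink4, Retnlb, Atoh1 and Creb3l1. Members were found by gene symbol, which gave 9 of the 10 among 23235 symbols, and Muc2 is not analysed here. RNA was measured in 4 libraries from the first 2 cm of colon after the caecum, taken at 6 weeks of age from mice of mixed strain. The 2 control libraries had the genotype Nkx2.2flox/+, and the 2 mutant libraries had the genotype Nkx2.2flox/flox with Villin-Cre/+. All 4 libraries therefore carried at least 1 floxed allele, and the controls had no Cre by their genotype label, so the presence of Cre and the loss of both alleles cannot be told apart. The Villin promoter drives Cre throughout the intestinal epithelium, so goblet cells, enteroendocrine cells and absorptive cells are all targeted. Nothing in the labels tells if 2 libraries of a group represent 2 animals, and the p-values reflect only the spread between these libraries, which may be technical.

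Goblet cells arise from the same secretory progenitors as enteroendocrine cells. ATOH1 commits a progenitor to the secretory lineage, SPDEF drives the maturation of goblet cells, and the mature cell loads its granules with gel-forming mucin and small proteins that keep the mucus layer in place over the bacteria of the colon. NKX2-2, the factor deleted in the mutants, acts on the enteroendocrine branch of that lineage.

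The targeted gene Nkx2-2 stood at 0.724 and 0.609 FPKM (fragments scaled by transcript length and library size) in the controls and at 0.125 and 0.351 FPKM in the mutants. Both mutant values lay below both controls, as in 35.1% of all tested genes, and the gene was under the minimum level for testing. The authors' DESeq results give Nkx2-2 mean normalized counts of 10.4 in the controls and 5.58 in the mutants (DESeq unadjusted p = 0.687). Mutant 1 was sequenced to 0.464 times the depth of control 1, whereas control 2 (1.13 times) and mutant 2 (1.03 times) were close to it. The summed level of 5 B cell markers was 84.6 FPKM in control 1 and 6.00 to 9.97 FPKM in the other libraries, so control 1 stood apart in lymphoid content, and 5 T cell markers summed to 47.5 and 26.6 FPKM in the controls and 20.0 and 22.3 FPKM in the mutants. The summed level of 8 epithelial markers was 5441 and 6708 FPKM in the controls and 5519 and 6163 FPKM in the mutants, and the groups overlapped. The part of these differences in the goblet cell values was not tested.

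None of the 9 goblet cell genes differed between mutant and control colon past the threshold. Across 13997 tested genes, 0.0643% passed (limma, adjusted p under 0.05), 5 higher and 4 lower in the mutants, and 0 of the 9 were among them. At an unadjusted p under 0.05, limma gave 3 of the 9 (Tff3, Spink4 and Atoh1, all lower), against 4.82% of all tested genes. In the authors' deposited table of DESeq results, 0 of the 9 had an adjusted p under 0.05, beside 0.0384% of the 20834 genes with a p (8 genes), and 0 had an unadjusted p under 0.05, beside 0.432%. The median log2 change of the 9 was −0.30, beside −0.17 for all tested genes, and 7 of the 9 had a change below 0, beside 82.6% of all tested genes. After rescaling the libraries by the median of gene ratios, which brings the median of all tested genes to 0.01, the median of the 9 was −0.12 and 5 of the 9 lay below 0, beside 49% of all tested genes.

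The size of the differences was described by 95% intervals, which reflect only the spread between these libraries and set no bound for differences between animals. On the log2(FPKM + 0.5) scale, the 95% interval of the change stayed within a 2-fold difference in either direction for all 9 genes, as it did for 83.7% of all tested genes. The 2-fold bound was chosen after the values were seen. After median ratio rescaling it held for 8 of the 9, and the upper end for Retnlb was then 1.02. With 1 library left out, the 2-fold bound held for fewer of the genes still. The share of all tested genes was not counted under these alternatives, so these counts are not a result particular to the goblet cell genes. In bulk tissue, fewer goblet cells and less RNA per goblet cell cannot be told apart.

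The goblet cell products were among the most abundant messages of this tissue. FPKM is scaled to transcript length, and the order of levels between genes depends on that scaling. The transcripts ran from 393 bases (Spink4) to 7930 bases (Fcgbp), and the part of length in these levels was not tested. In the authors' deposited table, Fcgbp had a mean normalized count of 15780 over all libraries. Beside it, Agr2 had 18187, Zg16 15657, Retnlb 7862, Spink4 6244 and Tff3 6036. Zg16 averaged 2659 ± 665 FPKM over the 4 libraries (SD, n = 4), Spink4 2579 ± 441, Agr2 2482 ± 387, Tff3 1887 ± 312 and Retnlb 1243 ± 309 FPKM. Each of these genes overlapped the next in that order in its range over libraries. Retnlb did not overlap Fcgbp, which averaged 169.0 ± 16.97 FPKM, and the transcription factor genes were lower still, with Creb3l1 at 89.8 ± 14.7, Spdef at 82.5 ± 17.6 and Atoh1 at 42.0 ± 8.20 FPKM. Creb3l1 and Spdef overlapped, whereas Atoh1 lay below both in all 4 libraries. By rank among all symbols Zg16 stood between 8 and 22 and Agr2 between 10 and 17, while Atoh1 stood between 2009 and 2574. The 9 genes together made up 2.06% and 1.83% of all FPKM in the controls and 1.92% and 1.71% in the mutants, and these shares overlapped between the groups.

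**Figure D1:**
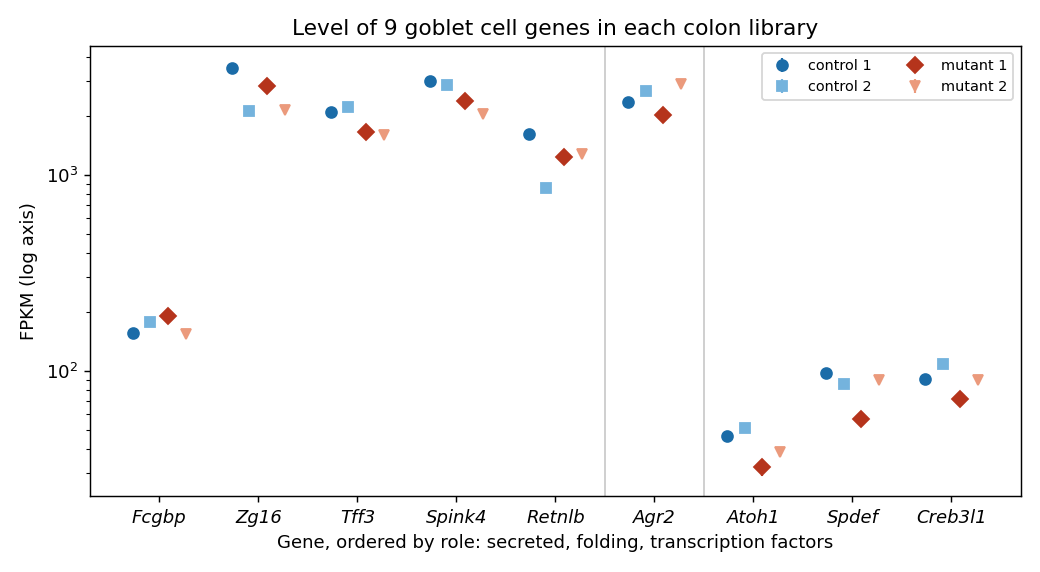
FPKM of the 9 goblet cell genes (horizontal axis, ordered by role) in control 1, control 2, mutant 1 and mutant 2 on a log axis, with the 95% counting interval of each value drawn as a bar that is mostly smaller than its symbol. Zg16, Spink4, Agr2, Tff3 and Retnlb lie between 853.3 and 3527 FPKM, Fcgbp between 154.7 and 189.4 FPKM, and the transcription factor genes between 32.2 and 107.6 FPKM.

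For most of these genes, the counting intervals were narrower than the spread between libraries of a group. The interval deposited with each FPKM implied at least 424 fragments behind every value, the fewest being for Atoh1 in mutant 1. The 2 controls had intervals that did not meet for 7 of the 9 genes, and so did the 2 mutants for 7 of the 9. The intervals met for Spink4 and Atoh1 in the controls and for Tff3 and Retnlb in the mutants. The spread between libraries of a group was therefore wider than counting error for most of the genes. That spread includes any offset of a whole library. The median deviation of all tested genes was −0.19 in mutant 1 and 0.02 in mutant 2. The same count of intervals was not made over all tested genes, so it is not a result particular to these genes.

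Among the secreted products, the libraries of each group lay close together in Tff3, a trefoil peptide that is packed with mucin and takes part in epithelial repair. Tff3 was at 2086 and 2218 FPKM in control 1 and control 2 and at 1649 and 1595 FPKM in mutant 1 and mutant 2. Both mutants lay below both controls, with means of 2152 ± 93.7 and 1622 ± 38.4 FPKM (SD, n = 2 each). Its log2 change was −0.41 (SE 0.16, 95% interval −0.76 to −0.05), and the limma adjusted p was 0.825. The authors' deposited table has a log2 change of −0.25 for Tff3, from mean normalized counts of 6567 and 5504, with an unadjusted p of 0.0568 and an adjusted p of 1. On mm9, the deposited row of Tff3 spans 31262251 to 31266556 of chromosome 17 (minus strand), and its 3 exons in GENCODE reach to 31266591.

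Spink4, a small secreted protein of the Kazal inhibitor family that is stored in goblet cell granules, showed the same order of libraries by group. Spink4 was at 2994 and 2887 FPKM in control 1 and control 2 and at 2387 and 2050 FPKM in mutant 1 and mutant 2. The mutant values again lay below both controls, with a log2 change of −0.41 (SE 0.16, 95% interval −0.78 to −0.04, limma adjusted p = 0.825). In the authors' deposited table its log2 change is −0.25 with an adjusted p of 1. After median ratio rescaling the groups of Spink4 overlapped and its log2 change was −0.22, whereas those of Tff3 did not overlap, at −0.22. Spink4 lies on the plus strand of chromosome 4, from 40867089 to 40878428.

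Zg16 and Retnlb, products that act on the bacteria of the lumen, varied mainly between the 2 controls. ZG16 is a lectin-like protein that binds Gram-positive bacteria and keeps them away from the epithelium. Zg16 was at 3527 and 2127 FPKM in control 1 and control 2 and at 2833 and 2147 FPKM in mutant 1 and mutant 2. Control 1 was the highest library, the lowest was control 2, and both mutants lay between them. The controls differed by 1.66 times and the mutants by 1.32 times, while the ratio of the group means was 0.881, and the log2 change was −0.15 (SE 0.26, 95% interval −0.74 to 0.44, limma adjusted p = 0.860).

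Retnlb encodes RELM-beta, a goblet cell protein that is induced by bacteria and by type 2 cytokines and kills Gram-negative bacteria. Retnlb was at 1608 FPKM in control 1 and 853.3 FPKM in control 2, a 1.88-fold difference between libraries of 1 group. The mutants stood at 1231 and 1280 FPKM, again between the controls and within 1.04 times of each other. Its log2 change was 0.10 (SE 0.27, 95% interval −0.53 to 0.73, limma adjusted p = 0.912). The control chosen decided its direction, with a log2 change of 0.56 without control 1 and −0.36 without control 2, and for Zg16 of 0.21 and −0.52. Beside these values, the B cell markers were highest in control 1, and the 8 absorptive cell markers summed to 18864 FPKM in control 1, their lowest, and 26528 FPKM in control 2, their highest. Car1 made up most of both sums, at 15112 FPKM in control 1 and 22063 FPKM in control 2. Car4, Ostb and Ceacam20 of the same list were higher in control 1 than in control 2. The cytokine gene Il4 was listed at 0 in all 4 libraries and Il13 in 3, with 0.430 FPKM in mutant 1. Of the same marker list, Il5 and Il25 did not exceed 0.335 FPKM in any library. Il33 was at 4.58 and 3.31 FPKM in the controls and 2.15 and 2.68 FPKM in the mutants. Ccl11 was at 25.1 and 28.0 FPKM in the controls and 19.4 and 27.8 FPKM in the mutants. On mm9, Zg16 spans 134193670 to 134195491 of chromosome 7 (minus strand) and Retnlb 48816969 to 48819005 of chromosome 16 (plus strand).

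Fcgbp, which encodes a large protein that crosslinks with mucin in the mucus gel, varied least over the 4 libraries. Fcgbp was at 155.3 and 176.5 FPKM in control 1 and control 2 and at 189.4 and 154.7 FPKM in mutant 1 and mutant 2. The mutants were both the highest and the lowest of the 4 libraries. Its log2 change was 0.05 (SE 0.18, 95% interval −0.37 to 0.46, limma adjusted p = 0.937). The gene spans 28856255 to 28905883 on the plus strand of chromosome 7.

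Agr2, a disulfide isomerase of the endoplasmic reticulum that mucin folding needs, also had mutants on both sides of the controls. Agr2 was at 2349 and 2674 FPKM in control 1 and control 2, 2009 FPKM in mutant 1 and 2895 FPKM in mutant 2. The mutants differed by 1.44 times and the controls by 1.14 times. The log2 change was −0.06 (SE 0.21, 95% interval −0.53 to 0.42, limma adjusted p = 0.934), and it was 0.13 after median ratio rescaling. Agr2 lies on the plus strand of chromosome 12, from 36719512 to 36730668.

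Of the transcription factor genes, Atoh1 had both mutants below both controls under each scaling that was run. Atoh1 encodes the basic helix-loop-helix factor at the head of the secretory lineage. Atoh1 was at 46.3 and 50.8 FPKM in control 1 and control 2 and at 32.2 and 38.7 FPKM in mutant 1 and mutant 2, with group means of 48.5 ± 3.15 and 35.4 ± 4.55 FPKM (SD, n = 2 each). The log2 change was −0.45 (SE 0.19, 95% interval −0.88 to −0.03, limma adjusted p = 0.825), the lowest of the 9. It was −0.27 after median ratio rescaling, −0.29 after quantile normalization and −0.40 relative to the epithelial markers, each with an adjusted p above the threshold. Atoh1 is a gene of 1 exon on the plus strand of chromosome 6, from 64679140 to 64681229.

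Spdef, an ETS-family factor, and Creb3l1, a membrane-bound factor of the endoplasmic reticulum that is released by cleavage, were both lowest in mutant 1. Spdef was at 97.2 and 85.7 FPKM in control 1 and control 2, 57.0 FPKM in mutant 1 and 90.0 FPKM in mutant 2. Mutant 2 lay between the controls, and the log2 change of −0.35 (SE 0.23, 95% interval −0.89 to 0.19, limma adjusted p = 0.825) was −0.02 without mutant 1. Creb3l1 was at 90.7 and 107.6 FPKM in control 1 and control 2 and at 71.6 and 89.3 FPKM in mutant 1 and mutant 2. Both mutants lay below both controls, mutant 2 by little, and the log2 change was −0.30 (SE 0.19, 95% interval −0.74 to 0.14, limma adjusted p = 0.825) and −0.14 without mutant 1. Spdef spans 27851392 to 27865896 of chromosome 17 and Creb3l1 91822485 to 91864327 of chromosome 2, both on the minus strand.

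**Figure D2:**
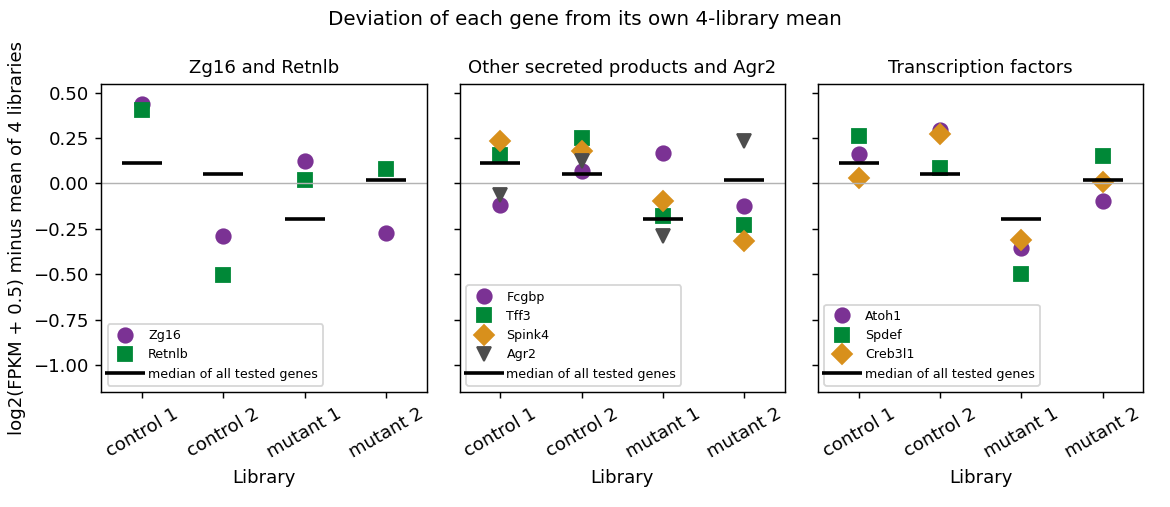
Deviation of each gene from its own mean over the 4 libraries, on the log2(FPKM + 0.5) scale, in 3 panels with the libraries on the horizontal axis and a black bar for the median of all tested genes. Zg16 and Retnlb lie at 0.44 and 0.41 in control 1 and at −0.29 and −0.51 in control 2, and Atoh1, Spdef and Creb3l1 lie at −0.36, −0.50 and −0.31 in mutant 1.

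Mutant 1 was the lowest library for Agr2, Atoh1, Spdef and Creb3l1, which makes 4 of the 9 genes, and the highest for Fcgbp. The share of all tested genes lowest in mutant 1 was not counted. In that library the median deviation of the 9 from their own means was −0.18, beside −0.19 for all tested genes. It is also the library of the lowest depth, and the part of depth in these values was not tested. In mutant 2 the median deviation of the 9 was −0.10, beside 0.02 for all tested genes, with Tff3 at −0.23, Spink4 at −0.31 and Zg16 at −0.28.

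Altogether 4 of the 9 genes (Tff3, Spink4, Atoh1 and Creb3l1) had both mutants below both controls, beside 35.1% of all tested genes. Both mutants were above both controls in 0 of the 9, beside 3.39% of all tested genes. After median ratio rescaling the count was 2 of the 9, Tff3 and Atoh1, beside 15.3% of all tested genes. Relative to the summed epithelial markers it was 3 of the 9, Tff3, Atoh1 and Creb3l1, beside 19.5% of all tested genes. Relative to those markers, Tff3 stood at 38.3% and 33.1% of their sum in the controls and at 29.9% and 25.9% in the mutants. Atoh1 stood at 0.851% and 0.757% in the controls and at 0.584% and 0.627% in the mutants.

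**Figure D3:**
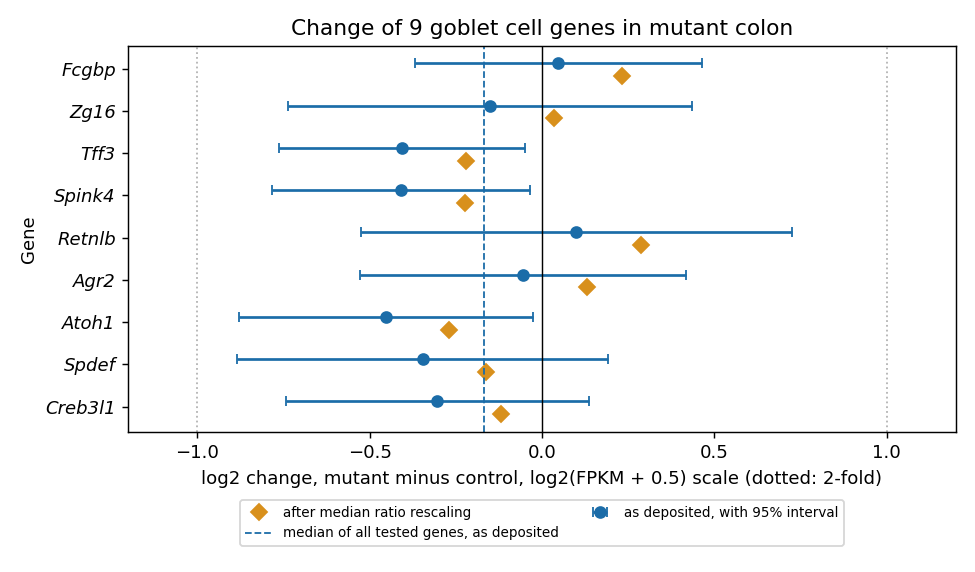
Log2 change of mutant against control for each of the 9 genes (vertical axis) on the log2(FPKM + 0.5) scale, as circles with 95% intervals for values as deposited and as diamonds after median ratio rescaling. The dashed line is the median of all tested genes (−0.17) and the dotted lines mark a 2-fold difference, which no interval as deposited reaches.

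Upstream sequence is shown for 1 gene on each side of these counts, Atoh1, with both mutants below both controls, and Fcgbp, with overlapping groups. Sequences came from a table of RefSeq promoters on GRCm38.p6, in which 4 of the 9 genes were matched (Fcgbp, Agr2, Atoh1 and Spdef). Each run is the 250 bases before the annotated start site, 5′ to 3′ on the strand of the gene, and capitals mark CANNTG, the E-box letters to which ATOH1 and other basic helix-loop-helix factors bind. The Atoh1 run is on the plus strand at chr6:64728875-64729124 and the Fcgbp run on the plus strand at chr7:28070986-28071235.
Atoh1: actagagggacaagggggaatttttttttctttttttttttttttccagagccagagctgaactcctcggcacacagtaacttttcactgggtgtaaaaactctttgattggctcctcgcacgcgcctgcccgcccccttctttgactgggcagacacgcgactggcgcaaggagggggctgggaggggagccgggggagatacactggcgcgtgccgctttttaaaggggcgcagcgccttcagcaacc
Fcgbp: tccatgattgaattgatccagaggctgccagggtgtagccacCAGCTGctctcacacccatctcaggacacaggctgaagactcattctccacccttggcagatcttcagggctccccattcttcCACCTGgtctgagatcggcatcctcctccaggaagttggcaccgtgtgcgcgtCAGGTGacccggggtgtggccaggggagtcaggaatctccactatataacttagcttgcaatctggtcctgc
CANNTG reads the same on both strands, so 1 search covers them. Fcgbp held 3 matches, which begin 208, 125 and 72 bases before the start site. Agr2 held 1, and Atoh1 and Spdef held 0 in this window, while 66.2% of all 32851 promoters of the same length in the table held at least 1. A match is a description of letters only.

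Companion genes of the goblet cell programme were compared through 5 further lists, and 0 of their tested genes passed in limma. In the list of mucins and other mucus proteins, 12 of 17 genes were tested, 8 with a change above 0 and 4 below. An unadjusted p under 0.05 in limma was found for 1 gene. Of all tested genes, 82.6% had a change below 0 and 4.82% had such a p. The list median was 0.16, beside −0.17 for all tested genes, and 4 genes had both mutants above both controls (3.39% of all tested genes) and 1 had both below (35.1% of all tested genes). Ang4, an antimicrobial ribonuclease, was at 8.08 and 10.9 FPKM in the controls and 42.7 and 13.1 FPKM in the mutants (limma adjusted p = 0.825), so the difference lay mostly in mutant 1. The membrane mucin gene Muc4 was at 16.1 and 12.9 FPKM in the controls and 31.4 and 16.5 FPKM in the mutants (limma adjusted p = 0.825), with the same library highest. Dmbt1, a scavenger receptor protein of mucus, was at 939.7 and 934.2 FPKM in the controls and 1254 and 1071 FPKM in the mutants (limma adjusted p = 0.825). Lypd8, listed under its older symbol 2210415F13Rik, encodes an anchored protein that keeps flagellated bacteria away, and ranged from 6648 FPKM in mutant 2 to 11154 FPKM in mutant 1.

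In the list of other goblet cell genes, 14 of 15 were tested, 3 with a change above 0 and 11 below, and 6 had both mutants below both controls. These counts stand beside 82.6% of all tested genes with a change below 0 and 35.1% with both mutants below both controls. The list median was −0.23, and 2 genes had an unadjusted p under 0.05 in limma, beside 4.82% of all tested genes. Rep15, a Rab15 effector, was at 146.4 and 157.5 FPKM in the controls and 85.0 and 94.3 FPKM in the mutants. The mutants of Rep15 lay well apart from the controls, with a log2 change of −0.76 (SE 0.17, unadjusted p = 0.00185, limma adjusted p = 0.529), the smallest adjusted p of the 5 lists. Tpsg1, a membrane-anchored tryptase, was at 54.4 and 52.8 FPKM in the controls and 33.5 and 39.7 FPKM in the mutants (limma adjusted p = 0.825). Fut2, a fucosyltransferase that decorates mucins, was at 142.8 and 115.4 FPKM in the controls and 118.9 and 181.8 FPKM in the mutants, and its groups overlapped.

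Among other transcription factors of the secretory lineage and the colon epithelium, 15 of 16 were tested. Of these, 1 had a change above 0 and 14 below, with a median of −0.25, beside 82.6% of all tested genes below 0. Both mutants were below both controls in 6 of the 15, beside 35.1% of all tested genes. An unadjusted p under 0.05 in limma was found for 1 gene, beside 4.82% of all tested genes. Foxa2, a forkhead factor, was at 4.60 and 4.69 FPKM in the controls and 2.39 and 2.62 FPKM in the mutants, with a log2 change of −0.78 (SE 0.22, limma adjusted p = 0.825). Gfi1, which acts below ATOH1 in the goblet and Paneth branch, was at 7.45 and 7.56 FPKM in the controls and 5.76 and 5.82 FPKM in the mutants. The values of Gfi1 were close within each group and apart between them, and its log2 change of −0.35 did not pass (SE 0.20, limma adjusted p = 0.825). The abundant factors Elf3 (354.4 and 373.1 FPKM in the controls, 289.4 and 386.5 FPKM in the mutants) and Id1 (234.2 and 259.1 FPKM, 211.9 and 273.9 FPKM) overlapped between the groups.

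Genes of mucin O-glycosylation, which build the sugar chains on mucins in the Golgi, gave 26 tested of 28. Of the 26, 5 had a change above 0 and 21 below, with a median of −0.24, beside 82.6% of all tested genes below 0. Both mutants were below both controls in 12 of the 26, beside 35.1% of all tested genes, and 3 genes had an unadjusted p under 0.05 in limma, beside 4.82% of all tested genes. B3gnt6, the enzyme that makes core 3 chains, was at 14.9 and 17.6 FPKM in the controls and 10.6 and 11.3 FPKM in the mutants (limma adjusted p = 0.825). St6galnac2, a sialyltransferase, was at 23.1 and 24.3 FPKM in the controls and 14.8 and 19.0 FPKM in the mutants (limma adjusted p = 0.825). B4galnt2, a glycosyltransferase of the gut epithelium, was at 404.9 and 490.6 FPKM in the controls and 362.2 and 391.4 FPKM in the mutants. Papss2, which makes the sulfate donor, was at 245.8 and 294.7 FPKM in the controls and 199.9 and 208.6 FPKM in the mutants.

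Genes of protein folding in the endoplasmic reticulum gave 28 tested of 28, 10 with a change above 0 and 18 below, with a median of −0.07, and 4 had both mutants below both controls. Of all tested genes, 82.6% had a change below 0 and 35.1% had both mutants below both controls. By limma 1 gene had an unadjusted p under 0.05, beside 4.82% of all tested genes. Herpud1, a stress-induced gene of protein disposal, was at 113.9 and 95.9 FPKM in the controls and 57.6 and 73.0 FPKM in the mutants (log2 change −0.68, SE 0.19, limma adjusted p = 0.825). Dnajb9, a cochaperone, was at 41.7 and 46.3 FPKM in the controls and 33.6 and 39.5 FPKM in the mutants. The chaperone gene Calr and the disulfide isomerase gene P4hb, the most abundant of the list, had log2 changes of 0.00 and −0.03. After median ratio rescaling the medians of the 5 lists were 0.34 for mucins and mucus proteins, −0.04 for other goblet cell genes, −0.06 for transcription factors, −0.05 for O-glycosylation and 0.11 for folding.

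**Figure D4:**
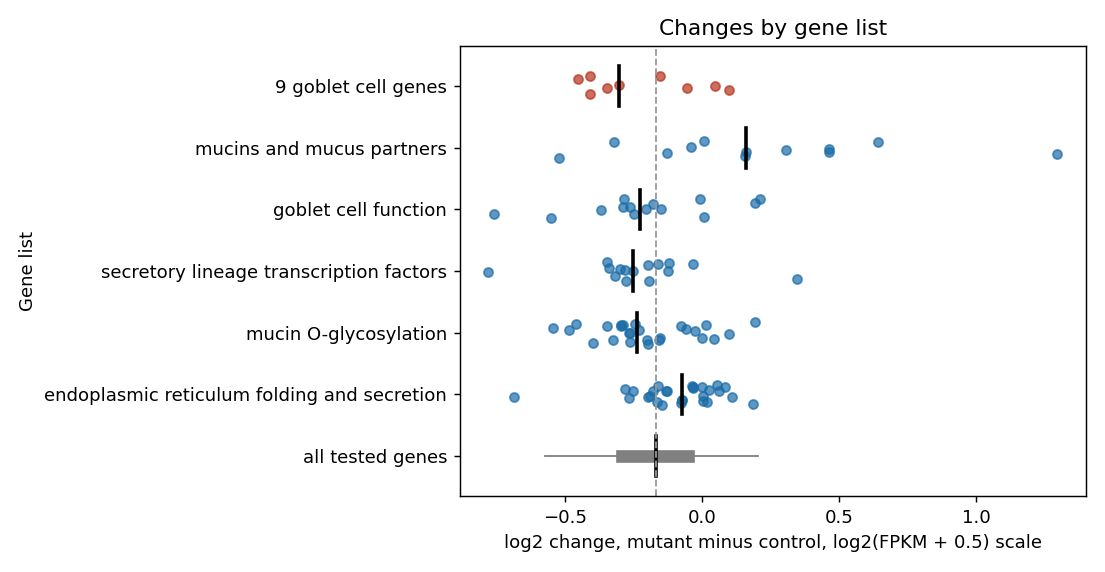
Log2 change of mutant against control on the log2(FPKM + 0.5) scale (horizontal axis) for each tested gene of the 9 goblet cell genes and of 5 companion lists, with black bars for list medians. The lowest row gives all tested genes, with a thick bar from the 25th to the 75th percentile (−0.29 to −0.05) and a thin line from the 5th to the 95th (−0.57 to 0.20), and the dashed line is their median.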

How the data were processed

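The authors deposited, for each library, a gene file of FPKM with a 95% interval and a status, per the file headers, and an isoform file that also gives the coverage signal of each RefSeq transcript. Tools named in the submitters' processing notes are TopHat, Cufflinks, DESeq and bcl2fastq 1.8.4, and the build is mm9. The authors' deposited table gives mean normalized counts per group (a signal), p-values before and after adjustment, and the fold change as a ratio and as its log2.

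Of 23699 rows, 306 lacked the status OK in some library and were left out, and rows sharing a symbol were summed. Genes averaging at least 0.5 FPKM were tested as log2(FPKM + 0.5), a scale that understates the change of low genes, with limma 3.58.1 (R 4.3.3), a variance trend and Benjamini-Hochberg adjustment at 0.05. A count model was not used, since FPKM are not counts. The 9 members had 1 isoform each and overlapped no other gene row. Depth came from the ratio of coverage to FPKM, and implied fragments from interval widths; both cover counting error only. With 2 libraries against 2, no exact permutation test can pass.

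The members and lists were chosen with earlier results of these data known. Companion genes named are the 2 with the smallest p, any that passed and the 2 most abundant of each list. Alternatives covered pseudocount, filter, scaling, variance model, replicate block, status and each library left out.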

Additional observations from a re-analysis of the deposited data

How the results depend on the processing

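The number of goblet cell genes past the threshold was 0 of 9 under all alternatives that were run, and limma gave 0 to 3 at an unadjusted p under 0.05. The number of all tested genes past the threshold, 9 as deposited (5 higher, 4 lower), was 2 with no filter, 3 after median ratio rescaling and 2 after quantile normalization, all higher, and 71 relative to the epithelial markers (49 higher, 22 lower). It was 119 without control 1 and 356 without control 2, and ran from 8 to 356 over the libraries left out, where a lone library is taken to vary like the other group. With the replicate number as a block it was 195, with 0 goblet cell genes (smallest limma adjusted p = 0.503). The correlation of the deviations of control 1 and mutant 1 over 13997 genes was −0.00217. With so few libraries, that value cannot tell if libraries of the same number share more than the number. The median log2 change of the 9 genes was −0.12 after median ratio rescaling, −0.17 after quantile normalization, −0.25 relative to the epithelial markers and −0.16 in the authors' deposited table, and ran from −0.36 to −0.14 with 1 library left out, the latter without mutant 1. The log2 ratio of their summed FPKM, −0.21, was −0.021 after median ratio rescaling and ran from −0.32 to −0.10 with 1 library left out, the latter without control 1. Of 135 member values under alternatives, 123 kept their direction and 12 in 4 genes did not. Zg16 was 0.035 after median ratio rescaling and 0.069 after quantile normalization. Agr2 was 0.130 and 0.091 under those scalings and 0.092 in the authors' deposited table. With 1 library left out, Fcgbp ran from −0.10 to 0.19, Zg16 from −0.52 to 0.21, Retnlb from −0.36 to 0.56 and Agr2 from −0.32 to 0.21. The cause was not tested. Tff3, Spink4, Atoh1, Spdef and Creb3l1 kept a change below 0 throughout. The spread between libraries of a group, which includes any offset of a whole library, exceeded counting error for most of the 9 genes.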

Other observations

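Markers of deep crypt secretory cells, goblet-like cells at the base of colon crypts that support stem cells, had both mutants below both controls in 2 of 4 genes, beside 35.1% of all tested genes. Reg4, the defining marker of these cells, was at 295.7 and 421.9 FPKM in control 1 and control 2 and at 123.7 and 166.6 FPKM in mutant 1 and mutant 2. Both mutants lay below both controls, with a log2 change of −1.30 (SE 0.23, 95% interval −1.82 to −0.77), and the gene did not pass (limma adjusted p = 0.287, unadjusted 0.000416). After median ratio rescaling the log2 change of Reg4 was −1.11 (limma adjusted p = 0.998). Cd24a was at 362.7 and 445.6 FPKM in the controls and at 238.7 and 322.2 FPKM in the mutants (limma adjusted p = 0.825), and Kit, the receptor tyrosine kinase by which these cells are often isolated, overlapped at 16.1, 21.7, 14.5 and 16.6 FPKM. Fut2, the remaining marker of the list, had a higher mean in the mutants (150.4 against 129.1 FPKM) with overlapping groups. Reg4 is also made by some enteroendocrine cells, and the 2 sources cannot be told apart in bulk tissue. Of 6 enteroendocrine markers, 4 had both mutants below both controls and 1 had both above, beside 35.1% and 3.39% of all tested genes. Chga, a granule protein gene, was at 43.4 and 69.8 FPKM in the controls and 4.87 and 8.69 FPKM in the mutants, Chgb at 68.7 and 97.8 against 3.91 and 11.1 FPKM, and Tph1, the serotonin synthesis enzyme gene, at 15.4 and 18.8 against 0.354 and 1.40 FPKM. These 3 genes fell in the mutants (limma adjusted p = 0.0163, 0.0302 and 0.0140), and after median ratio rescaling their adjusted p-values were 0.219, 0.349 and 0.193. Sst had a log2 change of −0.29 (limma adjusted p = 0.825), Neurod1 overlapped between the groups, and the peptide hormone gene Pyy was at 57.2 and 96.7 FPKM in the controls and 197.7 and 165.7 FPKM in the mutants (limma adjusted p = 0.404). The summed level of the 6 markers was 262.1 and 350.3 FPKM in the controls and 263.6 and 248.9 FPKM in the mutants, with overlapping groups, and their part in the Reg4 values was not tested.

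Products of gastric mucous cells had low FPKM in these libraries. Tff1 was listed at 0 in all 4 libraries, Muc5ac in 3 with 0.121 FPKM in mutant 1, and Tff2 did not exceed 1.07 FPKM. Muc6 was at 0.0834 and 0.296 FPKM in the controls and 0.934 and 0.162 FPKM in the mutants. In the authors' deposited table, Muc5ac has mean normalized counts of 0.741 in the controls and 166.6 in the mutants (adjusted p = 1) and Muc6 of 16.9 and 49.98 (adjusted p = 1). For Muc5ac that table therefore holds counts in the mutants where the FPKM is listed at 0 in 1 mutant and near 0 in the other, and the cause was not tested. Clca3, a mucus-processing metalloprotease gene of goblet cells, was at 333.0 and 304.3 FPKM in the controls and 427.0 and 297.2 FPKM in the mutants, with overlapping groups.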
